A study of Rattus norvegicus with 21 samples.

Results

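The genes described here encode the enzymes that turn arachidonic acid into prostaglandins and leukotrienes: Ptgs1, Ptgs2, Ptges, Ptgis, Hpgd, Alox5, Alox5ap, Alox15, Ltc4s and Lta4h. They were chosen by name, and 9 of the 10 had a row among 17085 gene symbols; Ptgis was not analysed here. All 9 passed the filter on low counts that left 11742 genes to test. The values come from bulk RNA sequencing of infarct-zone tissue from the hearts of Sprague Dawley rats, in 7 groups of 3 libraries. Sham hearts are the controls. A ligature on the left anterior descending coronary artery stayed in place for all 24 h in MI24h, with no reperfusion. MI1h_R hearts had 1 h of ligation followed by 23 h of reperfusion, called early reperfusion here, and MI6h_R hearts had 6 h of ligation followed by 18 h of reperfusion, called late reperfusion. In each of these groups the tissue was collected 24 h after the artery was tied. MI24h_F, MI1h_F and MI6h_F repeat these injuries and carry an F in the name. What F stands for is not written in the labels. The design text speaks of pretreatment with fenofibrate, which activates the lipid-sensing nuclear receptor PPARα. No Sham group carries F. The labels do not state whether the 3 libraries of a group came from separate animals, so p-values measure only the spread between these libraries.

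Prostaglandin synthesis starts when phospholipase A2 frees arachidonic acid from membranes. A cyclooxygenase, either the constitutive Ptgs1 or the inducible Ptgs2, converts it to prostaglandin H2, and terminal synthases then make the single products: Ptges, the inducible microsomal synthase, makes prostaglandin E2, and Hpgd begins the inactivation of prostaglandins. In the leukotriene branch Alox5, helped by its membrane partner Alox5ap, makes leukotriene A4, which Lta4h turns into the neutrophil attractant leukotriene B4 and Ltc4s into the cysteinyl leukotriene C4. Alox15 is a separate lipoxygenase, known from reticulocytes, eosinophils and some macrophages. In the infarcted heart these mediators are known for their part in leukocyte recruitment and in the tone and leakiness of vessels.

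Ptgs2 and Ptges gave the largest rises after injury among these enzymes and were lower together after early reperfusion, so the 250 bases before their starts are shown beside those of Ptgs1, the cyclooxygenase with the small changes. They are from RefSeq for the build GRCr8, which is not the build of the deposited values, and the table held 7 of the 9 genes with a row. Ptgs2 lies at chr13:64713813-64714062 on the + strand, Ptges at chr3:34586988-34587237 on the - strand and Ptgs1 at chr3:39981169-39981418 on the + strand, each written 5′ to 3′ in the direction of its gene. Capitals mark matches to any of 9 motifs searched on both strands.
Ptgs2: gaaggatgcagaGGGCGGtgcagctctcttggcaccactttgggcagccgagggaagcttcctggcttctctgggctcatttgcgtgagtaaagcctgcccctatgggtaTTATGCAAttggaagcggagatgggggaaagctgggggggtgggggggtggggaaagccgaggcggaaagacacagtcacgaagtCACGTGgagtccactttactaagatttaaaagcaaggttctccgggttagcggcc
Ptges: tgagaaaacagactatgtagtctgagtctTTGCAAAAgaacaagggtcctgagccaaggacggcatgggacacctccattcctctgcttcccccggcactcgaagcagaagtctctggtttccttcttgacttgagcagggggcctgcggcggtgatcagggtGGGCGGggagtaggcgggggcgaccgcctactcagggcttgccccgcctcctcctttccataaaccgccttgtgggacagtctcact
Ptgs1: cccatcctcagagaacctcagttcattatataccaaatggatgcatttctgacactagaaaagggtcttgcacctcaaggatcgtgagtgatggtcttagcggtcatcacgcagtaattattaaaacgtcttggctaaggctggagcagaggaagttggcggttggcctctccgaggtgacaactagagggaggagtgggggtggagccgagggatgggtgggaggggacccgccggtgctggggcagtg

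The motifs were the TATA box TATAAA, the E-box CACGTG, the hypoxia response core ACGTG that every such E-box contains, the cyclic AMP response core TGACG, the C/EBP-type motif TTGCNNAA, the AP-1 motif TGANTCA, the GC box GGGCGG, the nuclear receptor core AGGTCA and the NF-kB motif by its name. The Ptgs2 window held an E-box 55 bases before the start, a C/EBP-type motif on the opposite strand at 140 bases and a GC box at 238 bases. The Ptges window held a C/EBP-type motif at 221 bases and a GC box at 87 bases. None of the 9 motifs matched in the Ptgs1 window. Among the windows not shown, the GC box also matched in Hpgd, Alox5 and Lta4h, and no motif matched in Ltc4s. The NF-kB motif matched in Alox5 alone and the cyclic AMP response core in Hpgd alone. Among 33465 rat promoter windows of the same length, 9.22% held the C/EBP-type motif, 5.59% the E-box, 16.6% the hypoxia response core and 30.5% the GC box. A match describes these letters and says nothing about binding.

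Total counts ran from 12208041 to 18393795 per library. In Sham, 36.3% ± 2.54 of reads (SD, n = 3) fell on mitochondrially encoded genes, and this mean share lay between 14.1% and 17.9% in the injured groups, with TMM scaling factors of 0.535 to 0.677 in Sham and 0.996 to 1.17 elsewhere. Against Sham, scaling therefore matters: the median log2 fold change over all tested genes in MI24h was 0.07 with TMM factors and 0.80 with library size alone, so the changes below are on the TMM scale, relative to that median. The 10 cardiomyocyte markers were all present, with a summed level of 49300 to 98278 CPM (read counts scaled by depth and TMM factor to a common library size) in Sham and 2552 to 15257 CPM in the injured libraries. Sham library 31 stood apart in monocyte and macrophage markers, with 2972 CPM against 895 and 952 CPM in the other Sham libraries, and values that move without it are given with and without it. Fewer cells of a type and less RNA per cell cannot be told apart in these bulk samples.

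Per transcript length, Alox5ap and Lta4h had the highest mean level of these mRNAs in every group, and Alox15 reached the level of Lta4h in a single library, MI24h_F F4, at 66.9 against 66.8 TPM (transcript abundance scaled by length and to a common library total). In Sham, Alox5ap was at 19.3 ± 13.9 TPM (SD, n = 3) and Lta4h at 14.0 ± 3.63 TPM, which overlap. Ltc4s (6.44 ± 2.91 TPM), Alox15 (4.96 ± 3.04 TPM), Alox5 (2.69 ± 0.525 TPM) and Ptgs1 (2.18 ± 0.494 TPM) followed, and neighbours in this order did not differ by more than their spread. Hpgd (0.537 ± 0.133 TPM), Ptgs2 (0.13 ± 0.154 TPM) and Ptges (0.0333 ± 0.0577 TPM) were the lowest. In MI24h the order was Alox5ap at 153 ± 61.2 TPM, Lta4h at 52.5 ± 11.6 TPM, Ptgs2 at 12.2 ± 10.9 TPM, Alox15 at 9.94 ± 7.52 TPM and Ptges at 9.50 ± 8.03 TPM, and Ltc4s had no count. The ratio of Ptgs2 to Ptgs1 in TPM had a median of 0.0559 in Sham, 1.32 in MI24h, 0.432 in MI1h_R and 0.611 in MI6h_R. Ptgs1 was the more abundant of the cyclooxygenase mRNAs in every library of Sham, MI1h_R, MI6h_R and MI1h_F, where the ratio reached at most 0.12, 0.541, 0.715 and 0.398. In MI24h the ratio ran from 0.626 to 3.82 and in MI24h_F from 0.743 to 2.48, so that the library decided which was higher.

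**Figure D1:**
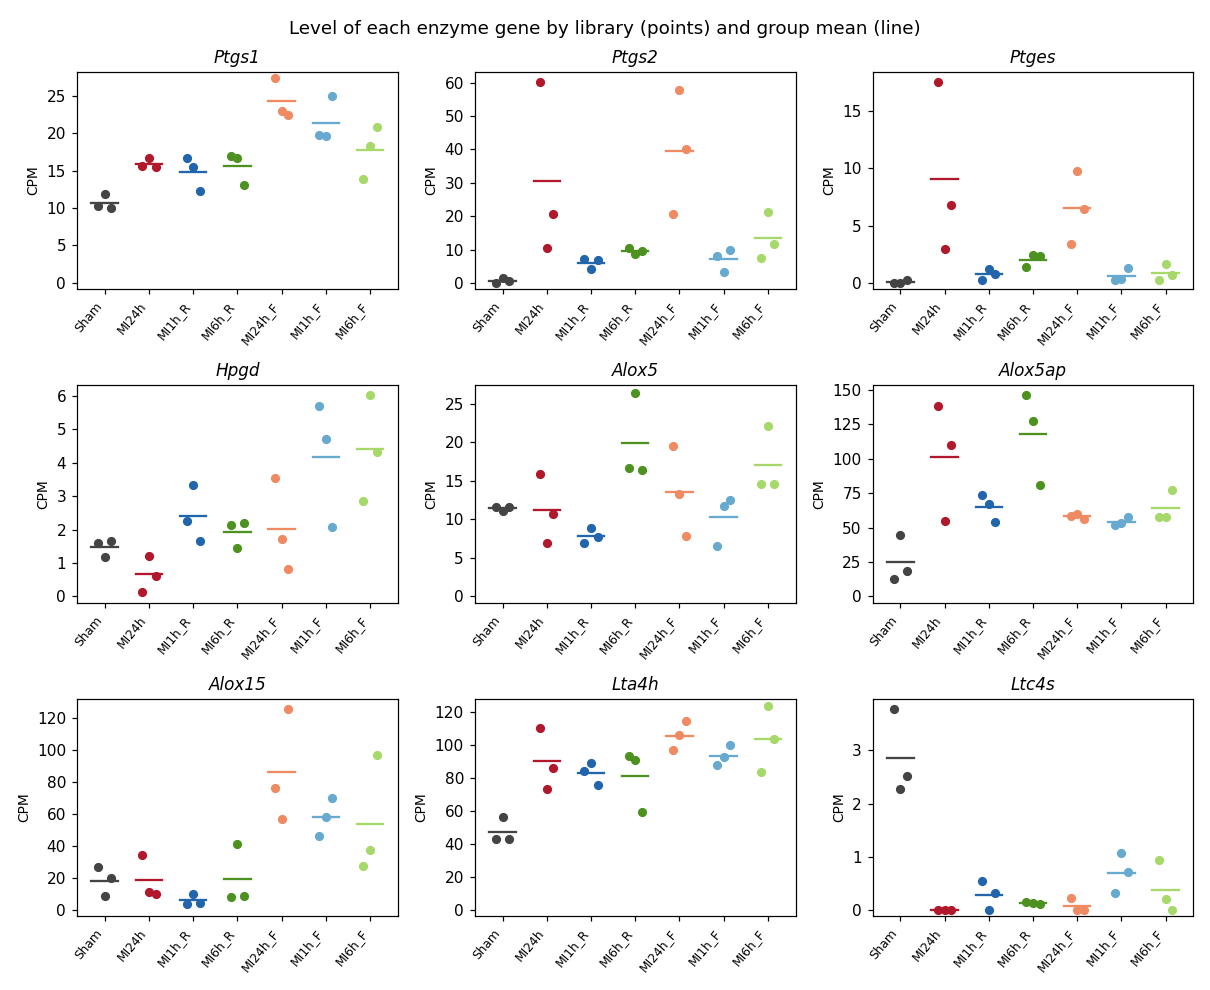
Level of each of the 9 genes in CPM on a linear axis by group; points are the 3 libraries and lines the group means. Ptgs2 and Ptges are highest in the groups with permanent ligation, Alox15 in the 3 groups with F, and Ltc4s in Sham.

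Infarction was compared with Sham to ask how the infarct zone differs 24 h after the artery was tied. In each injured group without F the inducible prostaglandin E2 pair Ptgs2 and Ptges, Ptgs1, Alox5ap and Lta4h rose, and Ltc4s fell, in edgeR at an adjusted p under 0.05. That is 5 members higher and 1 lower of 9 in MI24h, where 54.3% of all tested genes were called, and the same counts in MI1h_R (49.5% of all genes) and MI6h_R (57.2%). With so large a background, a count of 6 of 9 in either direction is close to what all genes show. By direction, 28%, 25.4% and 29.3% of all genes were called higher in MI24h, MI1h_R and MI6h_R. The shares called lower were 26.2%, 24.1% and 28%. The median log2 fold change of the 9 members in MI24h was 0.57, also with Ltc4s set to its bound, against 0.07 over all genes.

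Ptgs2 went from a nearly silent gene to a well-covered one. Its level was 0, 1.46 and 0.55 CPM in the Sham libraries and 60.2, 10.5 and 20.6 CPM in MI24h. It was 7.31, 4.21 and 6.73 CPM in MI1h_R and 10.5, 8.55 and 9.48 CPM in MI6h_R. Every injured library lay above every Sham library, and MI24h library 11 was far above the others. The log2 fold change against Sham was 5.47 ± 0.81 (SE) in MI24h (edgeR adjusted p = 2.14e-05), 3.15 ± 0.80 in MI1h_R (adjusted p = 0.00328) and 3.79 ± 0.79 in MI6h_R (adjusted p = 0.000544). Sham held only 0, 16 and 5 reads of Ptgs2, and these values moved with the Sham libraries: without Sham library 31 they were 6.86, 4.54 and 5.20, without Sham library 11 they were 4.86, 2.54 and 3.20, and without MI24h library 11 the first was 4.51, each still called.

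Ptges followed the same order at a lower level. Its counts were 0, 0 and 2 in the Sham libraries, 241, 48 and 99 in MI24h, 3, 17 and 12 in MI1h_R and 28, 40 and 42 in MI6h_R. Each injured library lay above the highest Sham library, at 0.22 CPM, the lowest by little, at 0.23 CPM in MI1h_R. With 2 reads in Sham, the ratio of depth-scaled counts was 133-fold in MI24h (95% counting interval 36.6 to 1104), 11.6-fold in MI1h_R (2.95 to 99.7) and 30.5-fold in MI6h_R (8.24 to 255), intervals that cover counting error only. The edgeR adjusted p was 5.23e-05, 0.0402 and 0.00217. The call in MI1h_R was lost without MI1h_R library 31 or 41 (log2 fold change 2.81 and 3.33, adjusted p = 0.127 and 0.0664) and without Sham library 11 or 31 (2.79 and 2.79, adjusted p = 0.118 and 0.115), and with limma on log2(TPM + 1) (0.96, adjusted p = 0.0742). The fitted log2 fold changes were 6.93, 3.34 and 4.77, and leaving out MI24h library 11 lowered the first to 6.03. Without Sham library 41, which holds both Sham reads, all 3 calls stood. No fold is given there, since Sham then had no read.

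Ptgs1 changed little. It was at 10.2, 11.8 and 9.98 CPM in Sham and at 15.6, 16.6 and 15.4 CPM in MI24h, with 12.31 to 16.7 CPM in MI1h_R and 13.1 to 17.0 CPM in MI6h_R. The groups did not overlap with Sham, and the log2 fold changes were 0.57 ± 0.19 (edgeR adjusted p = 0.0141), 0.47 ± 0.19 (adjusted p = 0.0418) and 0.55 ± 0.18 (adjusted p = 0.017). These small rises depended on the setting and on single libraries. With only the groups compared in the fit all 3 calls were lost (0.56, 0.47 and 0.51, adjusted p = 0.0909, 0.22 and 0.0873). In MI24h the call was lost without Sham library 41 (0.52, adjusted p = 0.0578). In MI6h_R it was lost without Sham library 41 or MI6h_R library 11 or 21 (0.51, 0.49 and 0.50, adjusted p = 0.0564 to 0.0587). In MI1h_R it was lost without Sham library 11 or 41 or MI1h_R library 11 or 31 (0.43, 0.42, 0.38 and 0.44, adjusted p = 0.0933 to 0.142), with DESeq2, with median-of-ratios factors and with no filter (0.41, 0.41 and 0.47, adjusted p = 0.0792, 0.0788 and 0.0682).

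Hpgd, which inactivates prostaglandins, did not pass the test against Sham in these 3 groups. It was at 1.18 to 1.65 CPM in Sham, at 0.15, 1.22 and 0.62 CPM in MI24h, at 2.25, 3.34 and 1.65 CPM in MI1h_R and at 2.13, 1.44 and 2.20 CPM in MI6h_R. The log2 difference was -1.12 ± 0.62 in MI24h (edgeR adjusted p = 0.136; 95% interval -2.42 to 0.18), and without MI24h library 21 it was -1.91 and passed (adjusted p = 0.0344). On log2(TPM + 1), with limma, Hpgd was called higher in MI1h_R and MI6h_R (0.74 and 0.75, adjusted p = 0.0425 and 0.0361).

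In the leukotriene branch the activating partner of Alox5 rose and Alox5 itself did not pass. Alox5ap was at 12.6, 44.3 and 18.1 CPM in Sham, at 138, 54.7 and 110 CPM in MI24h, at 73.7, 66.98 and 54.3 CPM in MI1h_R and at 147, 127 and 80.9 CPM in MI6h_R. The injured libraries all lay above the highest Sham library, number 31, which was also the Sham library rich in macrophage markers. The log2 fold changes were 2.01 ± 0.37 (edgeR adjusted p = 0.000188), 1.38 ± 0.37 (adjusted p = 0.00446) and 2.24 ± 0.37 (adjusted p = 6.34e-05), and 2.74, 2.11 and 2.99 without Sham library 31. Alox5ap is expressed by macrophages and other myeloid cells, and the summed level of 10 monocyte and macrophage markers was 4930 to 6925 CPM in MI24h, 4645 to 5734 CPM in MI1h_R and 3343 to 8641 CPM in MI6h_R. Their part in the Alox5ap result was not tested.

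Alox5 was at 11.1 to 11.6 CPM in Sham, 6.97 to 15.9 CPM in MI24h, 6.92 to 8.93 CPM in MI1h_R and 16.4 to 26.4 CPM in MI6h_R. Its log2 differences from Sham were -0.04 ± 0.34, -0.55 ± 0.34 and 0.79 ± 0.34, with adjusted p = 0.932, 0.196 and 0.0523. This null result depends on the scale: with library size alone Alox5 was called higher in MI6h_R (1.65, adjusted p = 0.00027), and with limma on log2(TPM + 1) in MI24h (0.70, adjusted p = 0.043) and MI6h_R (1.63).

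The enzymes that use leukotriene A4 moved in opposite directions. Lta4h, on the path to leukotriene B4, was at 43.0, 56.4 and 43.0 CPM in Sham and at 111, 73.6 and 86.0 CPM in MI24h, with no overlap. It rose by a log2 fold change of 0.92 ± 0.19 in MI24h (edgeR adjusted p = 0.000587), 0.81 ± 0.19 in MI1h_R (adjusted p = 0.00205) and 0.77 ± 0.19 in MI6h_R (adjusted p = 0.00225). Without Sham library 31 these were 1.09, 0.97 and 0.96, each still called. Ltc4s, on the path to the cysteinyl leukotrienes, had 40, 25 and 23 reads in Sham, none in any MI24h library, 7, 0 and 5 in MI1h_R and 3, 2 and 2 in MI6h_R. Against a floor of 3 counts per library it was at least 14.1-fold lower in MI24h, and the ratio of depth-scaled counts put it 10.1-fold lower in MI1h_R (95% counting interval 5.52 to 20.4) and 22.7-fold lower in MI6h_R (10.6 to 58.1). The edgeR adjusted p was 0.00033, 0.0103 and 0.00183, and in MI1h_R the fitted log2 fold change of -3.29 was -4.04 without library 11, still called. Ltc4s is known from mast cells, eosinophils and macrophages. Among 11 mast cell markers tested, Mcpt1 and Mcpt2 had identical counts in every library and are counted separately, also in the sum. Of the 11, 2 were higher and 4 lower in MI24h, against 54.3% of all genes called. The lower ones included Cpa3, a mast cell protease (log2 fold change -1.42 ± 0.51, adjusted p = 0.0258), and Ms4a2, the beta chain of the IgE receptor (-1.52 ± 0.55, adjusted p = 0.0275). The higher ones were Kit, the stem cell factor receptor (1.86 ± 0.32, adjusted p = 8.99e-05), and Hdc, which makes histamine (1.87 ± 0.64, adjusted p = 0.0187). Kit alone was at 12.7 to 34.8 CPM in Sham and 62.0 to 98.2 CPM in MI24h. The summed mast cell level was 71.3 to 125 CPM in Sham and 93.7 to 154 CPM in MI24h, and its part in the Ltc4s result was not tested.

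Alox15 did not pass in the groups without F. It was at 26.5, 8.65 and 19.7 CPM in Sham, 34.2, 11.4 and 9.80 CPM in MI24h, 3.96, 10.1 and 4.25 CPM in MI1h_R and 7.81, 40.99 and 8.82 CPM in MI6h_R, and each of these groups overlapped Sham. The largest difference was in MI1h_R, -1.58 ± 0.68 (edgeR adjusted p = 0.0605), which passed with DESeq2 (adjusted p = 0.0192).

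**Figure D2:**
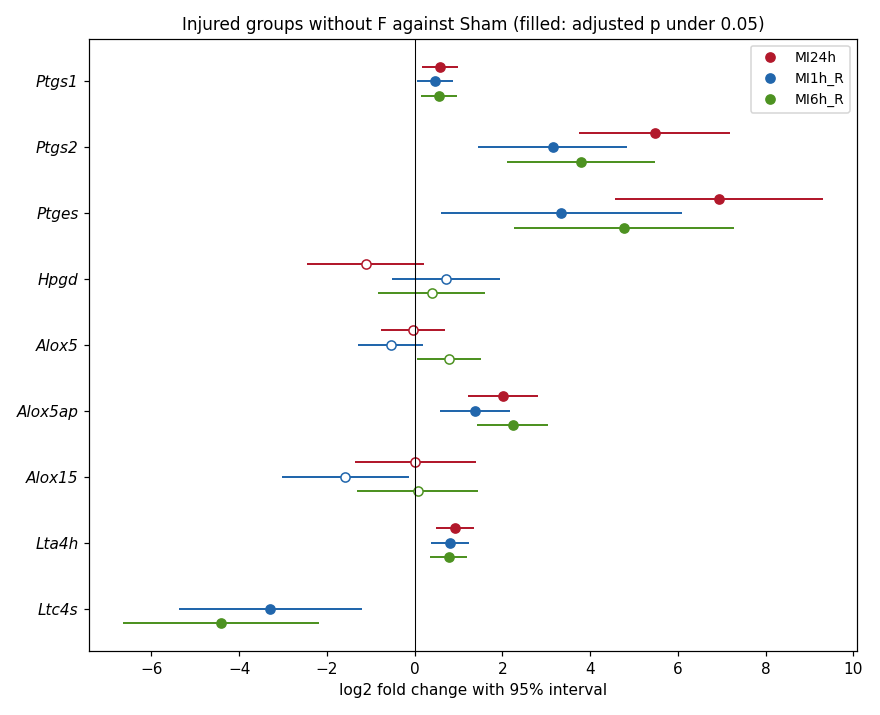
Log2 fold change with its 95% interval (horizontal axis) of each gene in MI24h, MI1h_R and MI6h_R against Sham, filled where the edgeR adjusted p is under 0.05. Ptgs2 and Ptges show the largest rises, Ltc4s the fall; Ltc4s in MI24h has no point because no read was counted there.

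The groups with F were also set against Sham, without a Sham group that carries F. In MI24h_F 6 members rose and 1 fell of 9 (60.8% of all genes called), in MI1h_F 6 rose and none fell (48.2%), and in MI6h_F 7 rose and 1 fell (57.2%), again shares near or moderately above the background in either direction. By direction, 30.7%, 23.9% and 28.6% of all genes were called higher and 30.1%, 24.2% and 28.5% lower. Alox15 was now among the members that rose, at log2 fold changes of 2.24 ± 0.66 (edgeR adjusted p = 0.00734), 1.67 ± 0.65 (adjusted p = 0.0433) and 1.56 ± 0.65 (adjusted p = 0.049). Hpgd rose in MI1h_F (1.49 ± 0.57, adjusted p = 0.0376) and MI6h_F (1.57 ± 0.57, adjusted p = 0.0249). Ptgs2 was 5.84 ± 0.81, 3.35 ± 0.80 and 4.29 ± 0.80 above Sham in log2 and called in all 3. Alox5ap rose by 1.22 ± 0.36, 1.11 ± 0.36 and 1.36 ± 0.37 (adjusted p = 0.00771, 0.0177 and 0.00402) and Lta4h by 1.16 ± 0.19, 0.98 ± 0.19 and 1.13 ± 0.19. Ptgs1 rose by 1.18 ± 0.19, 1.00 ± 0.19 and 0.73 ± 0.19 (adjusted p = 2.82e-05, 0.000286 and 0.0027), and Alox5 passed in none of them in edgeR (0.24, -0.16 and 0.58). On log2(TPM + 1), limma called Alox5 higher in all 3 (0.95, 0.70 and 1.34, adjusted p = 0.00875, 0.0455 and 0.000631), and with library size alone it passed in MI24h_F and MI6h_F (0.99 and 1.37). Ptges counts were 45, 154 and 88 in MI24h_F, 4, 5 and 18 in MI1h_F and 4, 24 and 10 in MI6h_F, with edgeR adjusted p = 8.12e-05, 0.0658 and 0.0246. The Ptges difference in MI1h_F passed with DESeq2 (3.16, adjusted p = 0.0274), with limma on log2(TPM + 0.1) (adjusted p = 0.00484), with library size alone (adjusted p = 0.0119) and without Sham library 41 (adjusted p = 0.0475). Ltc4s counts were 3, 0 and 0, then 5, 17 and 10, then 14, 3 and 0, with adjusted p = 0.00114, 0.0701 and 0.0151.

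Several of these calls in MI1h_F and MI6h_F were lost under another setting or without a single library. With median-of-ratios factors Alox15 missed in both (1.62 and 1.53, edgeR adjusted p = 0.0508 and 0.0557). With only the groups compared, Alox15 and Ptgs1 missed in MI6h_F (1.52 and 0.70, adjusted p = 0.0605 and 0.054) and Alox5ap in MI1h_F (1.11, adjusted p = 0.07). With library size alone Ltc4s missed in MI6h_F (-2.12, adjusted p = 0.0562). Alox15 in MI1h_F was lost without any of its own 3 libraries or Sham library 31 or 41 (1.36 to 1.81, edgeR adjusted p = 0.0555 to 0.138), and in MI6h_F without F4 (0.83, adjusted p = 0.313) or Sham library 31 or 41 (1.27 and 1.66, adjusted p = 0.149 and 0.0914). Hpgd was lost in MI1h_F without F1, F4 or any Sham library (1.21 to 1.59, adjusted p = 0.0608 to 0.137) and in MI6h_F without F2 or Sham library 31 (1.29 and 1.47, adjusted p = 0.0959 and 0.0661). Alox5ap in MI1h_F (1.11) was lost without Sham library 11 or 41 (0.78 and 0.92, adjusted p = 0.0801 and 0.092). Ptges in MI6h_F was lost without F2 (2.66, adjusted p = 0.124) or Sham library 11 or 31 (2.997 and 2.999, adjusted p = 0.0788 and 0.0798), and Ltc4s there without F2 or F4 (-2.60 and -2.30, adjusted p = 0.0606 and 0.0513).

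Other calls stood while their values moved. Without Sham library 31, Alox5ap was at 1.98, 1.85 and 2.11 and Ptgs2 at 7.27, 4.76 and 5.70 in MI24h_F, MI1h_F and MI6h_F. Without Sham library 11, Ptgs2 was at 2.76 in MI1h_F and 3.70 in MI6h_F. Without Sham library 41, which held both Sham reads, Ptges kept its calls in MI24h_F and MI6h_F, and no fold is given. Ltc4s was at -4.57 in MI24h_F without F2, and at -4.70 in MI6h_F without F1. In MI24h_F it kept its call without F1, its only library with a read, and no fold is given there.

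Early reperfusion was compared with permanent ligation to ask whether opening the artery after 1 h changes these genes. Ptgs2 and Ptges fell, both without F and with F, in comparisons that share no library. Without F, 2 of 9 members were called, both lower, where 4.32% of all genes were called. With F, 2 of 9 were called, again both lower, against 15.6% of all genes. Ptgs2 was at 7.31, 4.21 and 6.73 CPM in MI1h_R and at 60.2, 10.5 and 20.6 CPM in MI24h, and at 7.93, 3.26 and 9.85 CPM in MI1h_F and 20.5, 57.7 and 40.2 CPM in MI24h_F. In each pair of groups the reperfused libraries all lay below the lowest permanently ligated library. The log2 fold change was -2.32 ± 0.64 without F (edgeR adjusted p = 0.0461) and -2.49 ± 0.64 with F (adjusted p = 0.0153). Ptges was at 0.23, 1.23 and 0.76 CPM in MI1h_R against 17.6, 2.93 and 6.79 CPM in MI24h, and at 0.26, 0.31 and 1.29 CPM in MI1h_F against 3.40, 9.79 and 6.46 CPM in MI24h_F, again without overlap. Its log2 fold change was -3.59 ± 0.79 (adjusted p = 0.0161) and -3.41 ± 0.80 (adjusted p = 0.0105).

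Averaged over both arms, a contrast added after the data were seen, Ptgs2 was lower by a log2 fold change of -2.41 ± 0.45 (edgeR adjusted p = 0.00158) and Ptges by -3.50 ± 0.56 (adjusted p = 0.000475). In that average 4 of 9 members were called, 2 higher and 2 lower, against 18.6% of all genes. Hpgd was higher by 1.43 ± 0.40 (adjusted p = 0.0201), so the enzyme that removes prostaglandins and those that make prostaglandin E2 moved in opposite directions. Ltc4s was also called higher (adjusted p = 0.0198), with 12 reads in MI1h_R and 32 in MI1h_F against 0 in MI24h and 3 in MI24h_F. No fold is given, since MI24h had no read. The Ptgs2 and Ptges averages kept their calls without each library in turn. Hpgd lost its call without MI24h library 11 or MI1h_R library 31 (1.21 and 1.28, adjusted p = 0.054 and 0.0509), and Ltc4s without MI1h_R library 11 (adjusted p = 0.0605).

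Within the single arms calls were lost under several settings. With only the groups compared, Ptgs2 and Ptges in MI1h_R missed (-2.32 and -3.58, edgeR adjusted p = 0.125 and 0.1), and Ptgs2 there also missed with library size alone (-2.25, adjusted p = 0.0602) and with limma on log2(TPM + 0.1) (-2.06, adjusted p = 0.0641). Without MI24h library 11, the highest of its group, Ptgs2 in MI1h_R was at -1.35 (edgeR adjusted p = 0.392) and Ptges at -2.68 (adjusted p = 0.139). Ptgs2 was also lost without any of the 3 MI1h_R libraries (-2.47, -2.11 and -2.40, adjusted p = 0.0576 to 0.183), and Ptges without MI1h_R library 11 or 31 (-3.18 and -4.13, adjusted p = 0.076 and 0.0544). With F, Ptgs2 was lost without MI1h_F library F4 or MI24h_F library F2 (-2.15 and -2.12, adjusted p = 0.0803 and 0.062) and Ptges without MI1h_F library F4 (-3.09, adjusted p = 0.06), and without F5 Ptges was at -4.50.

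Neutrophil markers moved with Ptgs2 between permanent ligation and early reperfusion. Their sum over 10 genes was 669 to 3561 CPM in MI24h, 654 to 1074 CPM in MI1h_R, 1534 to 1903 CPM in MI24h_F and 400 to 736 CPM in MI1h_F, against 189 to 249 CPM in Sham. Averaged over both arms, 7 of the 10 were lower after early reperfusion and none higher, where 8.75% of all genes were called lower. MI24h library 11 was the highest of all 21 libraries in both Ptgs2 and the neutrophil sum, and library 21 the lowest of MI24h in both. Within MI1h_F and MI6h_F the libraries also had the same order in both. In MI24h_F, MI1h_R, MI6h_R and Sham the library with the highest neutrophil sum had the lowest Ptgs2. For MI24h_F library F1 these were 1903 and 20.5 CPM. In MI6h_R the neutrophil sum was 1352 to 1672 CPM, within the 669 to 3561 CPM of MI24h. Ptgs2 was at 8.55 to 10.47 CPM in MI6h_R and at 10.51 to 60.2 CPM in MI24h. The part of neutrophil content in the Ptgs2 result was not tested.

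**Figure D3:**
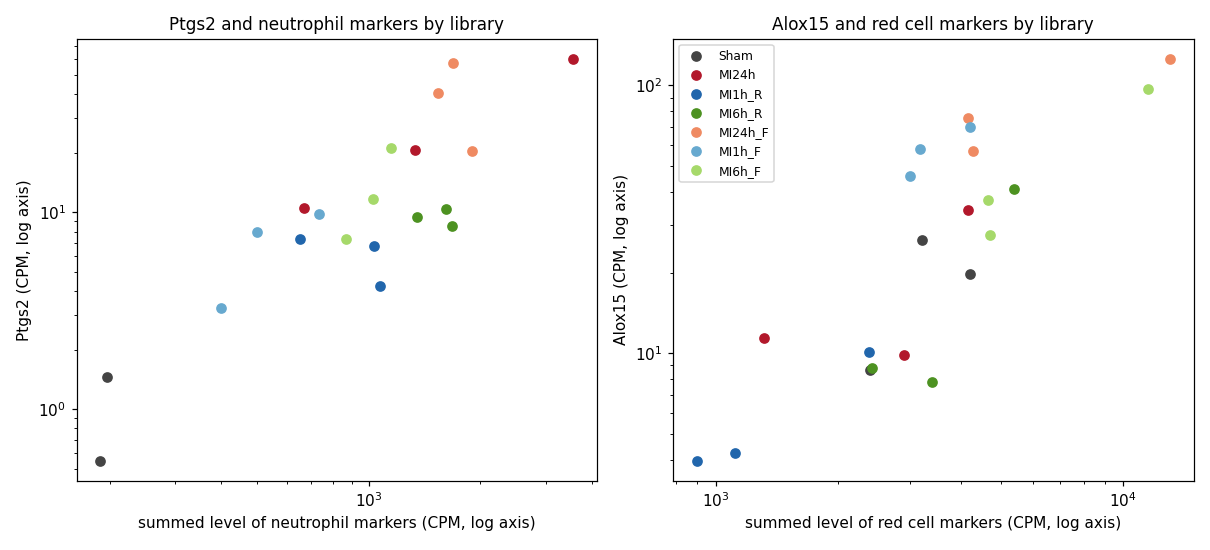
Each point is a library, coloured by group, with log axes in CPM. Left, Ptgs2 against the summed level of 10 neutrophil markers (Sham library 11, with no Ptgs2 read, is not drawn). Right, Alox15 against the summed level of 4 red cell markers, nearly all of it Hba-a1. There the 3 MI1h_F libraries lie above Sham and MI24h libraries with a similar sum. The 3 MI1h_R libraries lie below the MI1h_F libraries in both values.

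Late reperfusion was set against permanent ligation in the same way, and whether the early and late differences differ was tested only between the reperfused groups themselves. In edgeR no member was called without F (0.502% of all genes) or with F (0.485%), although 4 and 3 members had an unadjusted p under 0.05. DESeq2 called 0 and 1, and limma on TPM 0 and 0. Ptgs2 differed by -1.68 ± 0.62 (edgeR adjusted p = 0.368; 95% interval -2.97 to -0.39) in MI6h_R and by -1.55 ± 0.61 (adjusted p = 0.391) in MI6h_F, and Ptges by -2.16 ± 0.72 (adjusted p = 0.27) and -2.92 ± 0.77 (adjusted p = 0.117). Averaged over both arms Ptges was lower by -2.54 ± 0.53 (adjusted p = 0.0112), the only member called of 9, against 2.69% of all genes. Ptgs2 missed there (-1.61 ± 0.43, adjusted p = 0.0534) and passed with DESeq2 (adjusted p = 0.00673) and, in edgeR, without MI24h library 21, MI24h_F library F1 or MI6h_F library F2 (adjusted p = 0.0188, 0.04 and 0.0472). Hpgd likewise missed, with a difference in the other direction (1.31 ± 0.40, adjusted p = 0.105), and passed with DESeq2 (adjusted p = 0.0266) and, in edgeR, without MI24h library 21 or MI24h_F library F1 (adjusted p = 0.0337 and 0.0394). The Ptges call was lost with limma on log2(TPM + 0.1) (-1.80, adjusted p = 0.0781).

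Early and late reperfusion were then set against each other. Without F, Alox5 alone was called of 9 members (2.41% of all genes): it was at 6.92, 8.93 and 7.68 CPM in MI1h_R and at 16.7, 26.4 and 16.4 CPM in MI6h_R, which do not overlap. The log2 fold change was -1.34 ± 0.34 (edgeR adjusted p = 0.0447), and the call was lost without any of MI1h_R library 11 or 31 or MI6h_R library 11, 21 or 31 (-1.46 to -1.08, adjusted p = 0.0679 to 0.219) and with only the groups compared (adjusted p = 0.0596). With F the difference in Alox5 was -0.74 ± 0.34 (adjusted p = 0.347), and no member and no gene at all was called in edgeR (0% of all genes); Alox5 was the 1 member with an unadjusted p under 0.05, and DESeq2 and limma on TPM called 0 members.

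F was compared with the same injury without it. Averaged over the 3 injuries, a contrast added after the data were seen, Alox15, Hpgd and Ptgs1 rose and Alox5ap fell: 4 of 9 members, where 27.1% of all genes were called. Ptgs2 and Ptges did not pass (0.36 ± 0.35 and -0.66 ± 0.44, edgeR adjusted p = 0.483 and 0.29). The Alox15 change was the largest. Its level was 75.9, 56.8 and 126 CPM in MI24h_F, 45.8, 58.1 and 70.1 CPM in MI1h_F and 27.5, 37.4 and 96.6 CPM in MI6h_F, against 3.96 to 40.99 CPM in the 9 injured libraries without F. Permanent ligation and early reperfusion showed no overlap between libraries with and without F, and late reperfusion did. The averaged log2 fold change was 2.32 ± 0.39, a 4.997-fold rise (edgeR adjusted p = 0.000394), kept under each alternative run and without each library.

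Within the injuries Alox15 was called only after permanent ligation. There its log2 fold change was 2.22 ± 0.66 (edgeR adjusted p = 0.0343), lost without MI24h library 21 or 41 or MI24h_F library F1 or F4 (1.85 to 2.31, adjusted p = 0.0859 to 0.118) and 3.02 without MI24h library 11. It was 3.25 ± 0.70 in early reperfusion (adjusted p = 0.0687; 0.000186 with DESeq2) and 1.49 ± 0.65 in late reperfusion (adjusted p = 0.149; without MI6h_R library 21, 2.695 and adjusted p = 0.0327). In MI24h_F against MI24h, 2 of 9 members were called (13% of all genes), Alox15 and Ptgs1. In MI1h_F against MI1h_R none was (0.0766%), with 2 members at an unadjusted p under 0.05 and 1 called by DESeq2 and by limma on TPM. In MI6h_F against MI6h_R none was (9.62%), with 3 members at an unadjusted p under 0.05 and 0 by the other tools. The differences between injuries in the effect of F were tested as interactions: edgeR, DESeq2 and limma called 0 members in each of the 3, and no member had an unadjusted p under 0.05. Of all genes, edgeR called 0% in both interactions that involve permanent ligation and 0.00852% between early and late reperfusion. DESeq2 called 1.92% for early reperfusion against permanent ligation, 0.00852% for late reperfusion against permanent ligation and 0.485% between early and late.

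Red cell markers moved with Alox15. All 4 of the 7 listed that had a row, Hba-a1, Alas2, Slc4a1 and Ahsp, rose with F on average, by log2 fold changes of 1.16 ± 0.30, 1.88 ± 0.35, 2.12 ± 0.44 and 2.32 ± 0.48 (edgeR adjusted p = 0.00805, 0.000953, 0.002 and 0.00174). Their sum was 4163 to 13011 CPM in MI24h_F, 2994 to 4215 CPM in MI1h_F and 4653 to 11521 CPM in MI6h_F, against 1315 to 4169, 900 to 2383 and 2423 to 5405 CPM in the same injuries without F and 2397 to 4199 CPM in Sham. The libraries with the highest sums, MI24h_F F4 and MI6h_F F4, also had the highest Alox15. Almost all of each sum was Hba-a1, for example 2972 of 2994 CPM in MI1h_F F1. MI1h_F libraries had red cell sums within or near the range of Sham and MI24h, and their Alox15 of 45.8 to 70.1 CPM lay above the highest of those, 34.2 CPM. Alas2 was at 5.77 to 6.84 CPM in MI1h_F, 3.62 to 5.86 CPM in Sham and 2.08 to 6.78 CPM in MI24h. In the same order, Slc4a1 was at 9.10 to 20.6, 1.64 to 20.0 and 3.15 to 10.1 CPM. Ahsp was at 1.76 to 5.47, 1.55 to 4.28 and 0.43 to 3.50 CPM. In MI1h_R, Alas2 was at 0.25 to 2.32 CPM, Slc4a1 at 0.78 to 1.33 CPM and Ahsp at 0.08 to 0.51 CPM. Each MI1h_R library lay below every MI1h_F library in these genes, as it did in Alox15. The genes whose group means were nearest to the pattern of Alox15, by mean absolute difference of centred log2 CPM over the 7 groups among 10727 genes, were Slc4a1 (0.36), Ahsp (0.37) and Alas2 (0.39). The part of red cell content in the Alox15 result was not tested.

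The other members that moved with F changed less. Ptgs1 rose by a log2 fold change of 0.44 ± 0.10 on average (edgeR adjusted p = 0.00488), from 12.31 to 17.0 CPM over the libraries without F to 19.6 to 27.3 CPM in MI24h_F and MI1h_F and 13.9 to 20.8 CPM in MI6h_F. In permanent ligation alone it was 0.61 ± 0.18 (adjusted p = 0.0343), a call lost without any 1 of the 6 libraries (0.52 to 0.66, adjusted p = 0.0549 to 0.153) and with limma on TPM (0.56 and 0.62, adjusted p = 0.0572 and 0.0776). Hpgd rose by 1.18 ± 0.32 (adjusted p = 0.0114), from 0.15 to 3.34 CPM without F to 0.81 to 6.02 CPM with it, ranges that overlap. Alox5ap fell by 0.65 ± 0.21 on the log2 scale (adjusted p = 0.0262): it was at 51.5 to 77.5 CPM in the 9 libraries with F and at 54.3 to 147 CPM in the 9 without. That call was lost without MI1h_R library 11, MI24h library 11, MI6h_F library F2 or MI6h_R library 11 (-0.61, -0.55, -0.62 and -0.58, adjusted p = 0.0511 to 0.0604). Of the 10 tested monocyte and macrophage markers 2 were lower with F on average and none higher, where 15.7% of all genes were called lower, and their part in the Alox5ap result was not tested.

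**Figure D4:**
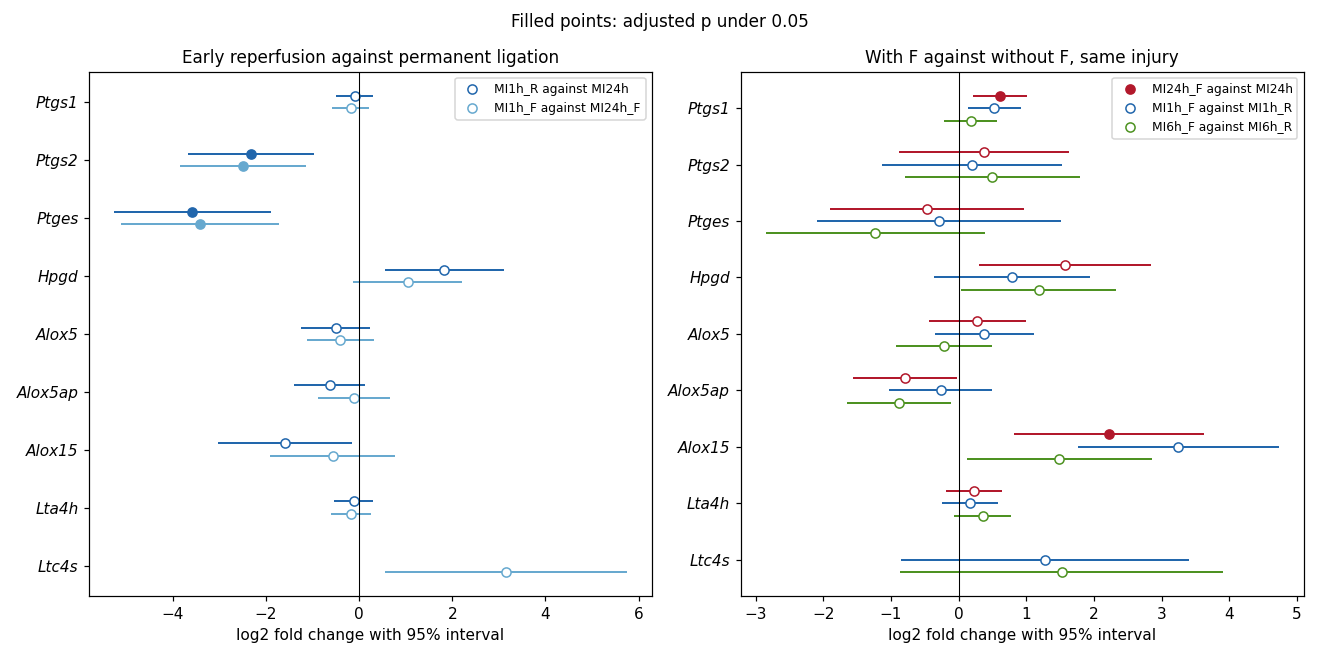
Log2 fold change with its 95% interval of each gene for early reperfusion against permanent ligation (left, without and with F) and for F against the same injury without it (right), filled where the edgeR adjusted p is under 0.05. Ptgs2 and Ptges lie below 0 in both arms on the left, and Alox15 lies above 0 in the 3 injuries on the right; Ltc4s has no point where it is compared with MI24h, which had no read of it.

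Genes around these enzymes were read from 10 lists of the pathway, 121 symbols of which 101 had a row and 81 were tested. A list of inducers of Ptgs2 and Ptges held cytokines, receptors and transcription factors, and also Nfkbia, an inhibitor of NF-kB. In MI24h 11 of its 12 tested genes were higher, with a median log2 fold change of 1.74 against 0.07 over all genes. Of all genes 28% were called higher. The immediate-early factor Egr1 rose by 2.73 ± 0.31 (edgeR adjusted p = 1.75e-06), the cytokine Il1b by 3.54 ± 0.52 (adjusted p = 1.95e-05) and the NF-kB subunit Nfkb2 by 1.00 ± 0.15 (adjusted p = 2.51e-05). The cytokine Il6 went from 1, 3 and 0 reads in Sham to 685, 97 and 303 in MI24h. After early reperfusion, averaged over both arms, 9 of the 12 fell and none rose, where 8.75% of all genes were called lower, with a median of -1.03: Egr1 by 1.40 ± 0.21 (adjusted p = 0.000293), Il1b by 1.67 ± 0.33 (adjusted p = 0.00257) and Nfkbia, an NF-kB inhibitor that NF-kB itself induces, by 0.97 ± 0.15 (adjusted p = 0.000373) on the log2 scale. After late reperfusion 2 fell and none rose, where 1.84% of all genes were called lower.

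With F, averaged over the injuries, 11.3% of all genes were called higher and 15.7% lower. Of the 12 genes on the inducer list, the Toll-like receptor Tlr4 rose by 0.66 ± 0.14 (edgeR adjusted p = 0.0022). Of its NF-kB genes 3 fell: Nfkb2 by 0.52 ± 0.09 (adjusted p = 0.000394), Rela by 0.32 ± 0.08 (adjusted p = 0.00699) and the inhibitor Nfkbia by 0.38 ± 0.12 (adjusted p = 0.0256) on the log2 scale. Of 11 genes of arachidonate release, 2 fell, the phospholipases Pla2g4b (-0.60 ± 0.14, adjusted p = 0.00357) and Pla2g6 (-0.43 ± 0.10, adjusted p = 0.00486). Of 6 tested glucocorticoid-related genes 2 rose, the glucocorticoid receptor Nr3c1 and Anxa1, a phospholipase inhibitor (0.39 ± 0.09 and 0.56 ± 0.16, adjusted p = 0.00347 and 0.0158). Another 2 fell, Fkbp5 and Per1, which glucocorticoids induce (-0.57 ± 0.13 and -0.82 ± 0.17, adjusted p = 0.00396 and 0.00169).

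Upstream, 4 of 11 tested genes of arachidonate release were higher and 5 lower in MI24h. Of all genes 28% were called higher and 26.2% lower there, and the counts of the small lists that follow stand against these shares. Pla2g4a, the cytosolic phospholipase that frees arachidonate, rose by 1.04 ± 0.28 (edgeR adjusted p = 0.00456), and the secreted phospholipases Pla2g5 and Pla2g2a fell by 3.89 ± 0.76 and 3.85 ± 0.70 on the log2 scale (adjusted p = 0.000321 and 0.000166). Of 10 genes that put arachidonate and other fatty acids back into lipids, 5 rose and 3 fell. The arachidonate-preferring ligase Acsl4 rose by 2.02 ± 0.27 (adjusted p = 6.64e-06) and Acsl1, the main acyl-CoA ligase of heart muscle, fell by 4.37 ± 0.48 (adjusted p = 1.1e-06). Among 9 other prostanoid synthases 2 rose and 6 fell. Ptges2, another prostaglandin E synthase, fell by 1.44 ± 0.21 (adjusted p = 1.64e-05), and the thromboxane synthase Tbxas1, chosen after its values were seen, rose by 1.81 ± 0.42 (adjusted p = 0.00152). Of 6 genes of prostanoid transport and breakdown 4 fell, Ptgr2, a prostaglandin reductase, by 2.81 ± 0.20 (adjusted p = 9.61e-08), and Slco2a1, the prostaglandin uptake transporter, rose by 2.57 ± 0.49 (adjusted p = 0.000263).

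Downstream, most prostanoid receptors did not pass: in MI24h 1 of 7 rose and 1 fell. The riser was Ptgir, the prostacyclin receptor, at 1.04, 2.28 and 0.658 CPM in Sham and 16.2, 11.5 and 8.98 CPM in MI24h (log2 fold change 3.17 ± 0.39, edgeR adjusted p = 2.97e-06). Ptger4, a prostaglandin E2 receptor, fell by 0.78 ± 0.18 (adjusted p = 0.0013). Of 8 tested genes on the list of receptors for leukotrienes and related lipid mediators 4 rose and 3 fell. Ltb4r, the leukotriene B4 receptor of neutrophils, went from 0.378, 0.637 and 1.32 CPM in Sham to 44.4, 29.9 and 27.2 CPM in MI24h, and its log2 fold change was 5.46 ± 0.48 (adjusted p = 2.82e-07). It was 4.29 ± 0.47 in MI1h_R and 6.14 ± 0.48 in MI6h_R, and it was lower after early reperfusion than after permanent ligation, averaged over both arms (-1.18 ± 0.25, adjusted p = 0.00395). Cysltr1, a receptor of the cysteinyl leukotrienes, was called lower in MI24h (-1.14 ± 0.47, adjusted p = 0.0497), though the groups overlapped. It was at 2.65, 1.09 and 0.768 CPM in Sham and 0.510, 1.10 and 0.411 CPM in MI24h. With F, Cysltr1 rose on average by 1.73 ± 0.25 (adjusted p = 0.000134), and it was at 2.72, 2.35 and 3.23 CPM in MI24h_F. Of 6 genes of the epoxygenase and omega-hydroxylase branch 1 rose and 4 fell in MI24h. Cyp4f18, which degrades leukotriene B4 in neutrophils, rose by 6.20 ± 0.83 (adjusted p = 7.71e-06) and was lower after early reperfusion by 3.17 ± 0.48 (adjusted p = 0.000324). Cyp4f18 had 8, 28 and 0 reads in Sham and 2537, 302 and 743 in MI24h, the most in library 11. The epoxide hydrolases Ephx1 and Ephx2 fell in MI24h by 2.56 ± 0.43 and 3.10 ± 0.60 (adjusted p = 8.12e-05 and 0.000288). In the remaining lists, 1 of 7 other lipoxygenase and leukotriene enzymes rose and 2 fell (Dpep1, which trims cysteinyl leukotrienes, by 4.35 ± 0.52, adjusted p = 2.61e-06, and Mgst3 by 3.17 ± 0.43, adjusted p = 8.52e-06), and 1 of 6 glucocorticoid-related genes rose, Fkbp5 (0.97 ± 0.23, adjusted p = 0.00163).

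**Figure D5:**
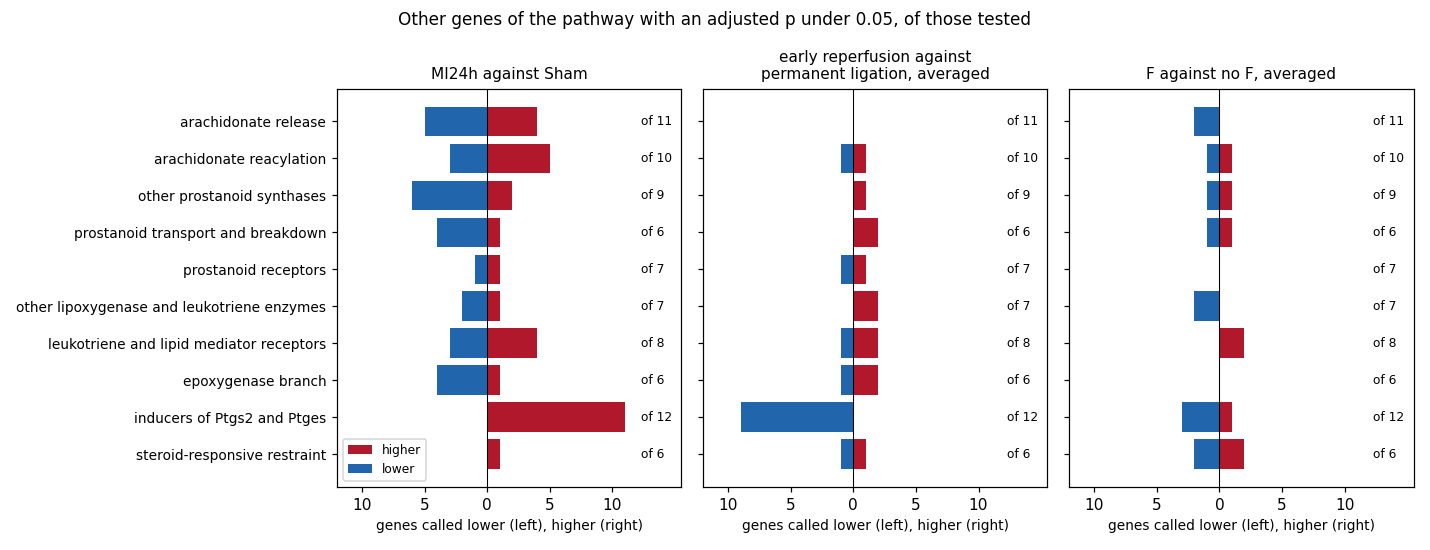
Number of genes of each list called higher (right of 0) or lower (left of 0) by edgeR at an adjusted p under 0.05, beside the number tested, in MI24h against Sham and in the averaged contrasts of early reperfusion and of F. The list of inducers of Ptgs2 and Ptges, which includes the inhibitor Nfkbia, has 11 of 12 higher in MI24h and 9 of 12 lower after early reperfusion.

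Genes whose group means followed those of a member most closely were also named, by the same measure of likeness over 7 groups. For Ptgs2 they included Hcar2 (mean absolute difference 0.21 in log2) and Clec4d (0.26). For Ptges they were Galnt14 (0.17), the glucose transporter Slc2a1 (0.17) and the stress-induced pseudokinase Trib3 (0.25). Lpcat4, which remodels phospholipids, was the nearest to Alox5ap (0.10). These are descriptions over 7 group means.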

How the data were processed

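Messenger RNA from infarct-zone tissue was sequenced in 21 libraries, and per the submitters' processing notes STAR 2.7.3a, RSEM 1.3.1 and the genome build rn7 were used; annotation and strandedness are not given in the sources used here. The authors deposited estimated counts per gene symbol, held as whole numbers and used as deposited, and TPM, which sum to 924438 to 972242 per library.

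Counts were tested with edgeR 4.0.16 (R 4.3.3): filterByExpr on the 7 groups, TMM factors, 1 term per group, the quasi-likelihood test over all 21 libraries, and Benjamini-Hochberg adjustment over 11742 genes, with a call at an adjusted p under 0.05. CPM use TMM-scaled library sizes. The depth sets the precision of low genes, whose intervals at 95% and floor of 3 counts cover counting error only. Planned comparisons were each injury against Sham, reperfusion against permanent ligation, early against late reperfusion, F against no F and 3 interactions; the 3 averaged ones were added after the data were seen. Groups follow the sample titles, since the group field shortens some names.

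Alternatives were DESeq2 1.42.0, limma 3.58.1 on log2(TPM + 1) and log2(TPM + 0.1), scaling by library size alone or by median-of-ratios factors, omission of the 13 mitochondrial genes, no filter, only the groups compared, a replicate block and each library left out. The edgeR, DESeq2 and limma steps were tested on simulated data. The members and lists were chosen with earlier results of these data known. Every member was named, from each pathway list up to 4 genes with the smallest p in a comparison and the receptors of the products, and for each member genes among the 3 nearest in group means, not all of which are reported here. The COX2 row, a mitochondrial gene, was not taken for Ptgs2. Fitted fold changes of genes near 0 counts depend on the prior count, so Ptges and Ltc4s are also given as counts.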

Additional observations from a re-analysis of the deposited data

How the results depend on the processing

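No called log2 fold change of a member reversed its sign under any alternative run. Median-of-ratios factors, omission of mitochondrial genes and no filter moved no count of called members by over 1.5 times. Other settings did, and the cause was not tested. Fitting only the groups compared called 5 members in MI6h_F against Sham in place of 8, none in MI1h_R against MI24h in place of 2, none in MI1h_R against MI6h_R in place of 1, and 1 in MI1h_F against MI1h_R in place of 0. DESeq2 called 4 members in MI1h_R against MI24h, 1 in MI6h_F against MI24h_F, 1 in MI1h_F against MI1h_R and 3 in the late reperfusion average in place of 1. limma on log2(TPM + 1) called 2 members in MI1h_R against MI6h_R and 1 each in MI24h_F against MI24h and MI1h_F against MI1h_R. With log2(TPM + 0.1) it called 1 in MI1h_R against MI24h, 1 in each of those F comparisons and 0 in the late reperfusion average. Library size alone called 1 in MI1h_R against MI24h, and in MI24h against Sham split all calls into 6484 higher and 1504 lower genes, against 3293 and 3078 with TMM factors. Leaving out each library gave 5 to 8 called members in MI6h_F against Sham, 0 to 3 in MI1h_R against MI24h, 0 to 1 in MI1h_R against MI6h_R, 0 to 2 in MI1h_F against MI24h_F, 0 to 1 in MI24h_F against MI24h, 0 to 1 in MI6h_F against MI6h_R and 1 to 3 in the late reperfusion average. Replicate numbers share only a number: of 20 same-numbered pairs 5 had deviations correlated above 0.1 (median r -0.106), and with a replicate block 0 members were called in MI6h_R against Sham in place of 6, 1 in MI1h_R against MI24h and 2 in MI6h_F against MI24h_F in place of 0. Depth limits Ptges in Sham (2 reads) and Ltc4s after injury (at most 17 reads a library).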
